A study of Mus musculus with 6 samples.

Results

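The genes described here are 8 genes of ion transport in the stria vascularis, the tissue of the cochlear lateral wall that secretes endolymph: *Kcnq1*, *Kcne1*, *Kcnj10*, *Slc12a2*, *Atp1b1*, *Atp1b2*, *Bsnd* and *Slc26a4*. They were chosen by name, and every probe annotated with a member's symbol was taken. Of the 8 genes, 7 were matched, among 18138 gene symbols on the array, with 13 of its 25697 probes. *Kcnj10*, the potassium channel of the strial intermediate cells, was not matched and is not analysed here. Total RNA of cochlear tissue was hybridized to Illumina MouseRef-8 v2 arrays, 1 array per sample, from 3 WT and 3 *Cmah*-null mice. All mice were 12 months old and of the strain C57BL/6, given as C57BL/6J in the study's methods, and the *Cmah*-null mice carry a germline disruption of *Cmah*, which encodes the enzyme that makes the sialic acid Neu5Gc, in all tissues. The sample records do not say that each array is a separate mouse, so p-values measure the spread between these samples only.

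The stria vascularis holds the endolymph at a high potassium concentration and a positive potential, on which hair cells depend. Its marginal cells take up potassium from the narrow space inside the stria through the Na,K-ATPase and the cotransporter NKCC1, and release it into the endolymph through an apical channel of KCNQ1 and KCNE1. The chloride that enters with potassium leaves the marginal cell again through chloride channels that need the subunit barttin. Pendrin, in spindle cells at the edges of the stria, in the root cells beside it and elsewhere in the inner ear, exchanges chloride for bicarbonate. Loss of most of these proteins causes deafness in mice or humans.

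The probes are 50-base oligonucleotides. The first 30 bases of those that the results below turn on are shown in lower case, 5′ to 3′, as the deposited annotation lists them, so that the target of each value is defined. Those of *Kcne1* are shown because its probes gave different patterns.
*Atp1b2* ILMN_2602902: gcgaaagagccccctgctccaagttttcgt
*Bsnd* ILMN_2669493: ggactgactgtgacccacatcagacagagc
*Slc26a4* ILMN_1220193: gccctgagaattagcaatgttcggatgtgc
*Kcne1* ILMN_2607246: ctgtgaggggtgaattaatgacaccagttt
*Kcne1* ILMN_2759207: tgtcgtgaaccccacaccctacaggtgaca
*Kcne1* ILMN_2921901: agaaggaaccatgggagtggagcggagagg

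The annotation places *Atp1b2* at 11qB3, *Atp1b1* at 1qH2.2, *Bsnd* at 4qC7, *Slc26a4* at 12qA3, *Kcne1* at 16qC4 and *Slc12a2* at 18qD3. It names no genome build, so no base positions are given.

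The arrays differed in ways that touch these genes. Each array detected between 13873 and 15223 probes, taking a detection p under 0.05 against negative controls. *Cmah*-null 1 and 2 were close to each other, with a correlation of 0.996 over the 12410 probes detected on the 6 arrays. *Cmah*-null 3 stood apart, at 0.865 to 0.891 with the other arrays, where every other pair reached 0.941 or more. Probes had a median of 32 to 34 beads on WT 1 and *Cmah*-null 1 and 2, and 38 to 39 on the other 3 arrays. Differences within these 2 sets of arrays are given beside the results. *Cmah* itself was detected on only 1 WT and 2 *Cmah*-null arrays, so its probe gives no check of the genotype labels.

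The probes of the apical potassium channel genes, *Kcnq1* and *Kcne1*, were dim in this tissue. *Slc12a2*, *Atp1b1*, *Atp1b2*, *Bsnd* and *Slc26a4* had a probe detected on the 6 arrays, whereas *Kcnq1* and *Kcne1* had none. Of the 13 probes, 6 were detected on the 6 arrays, 4 on some arrays and 3 on none. *Slc12a2*, *Atp1b1* and *Atp1b2* are expressed in many other tissues, so the marker check rests on *Bsnd* and *Slc26a4*. Of these, *Slc26a4* marks spindle, root and other cells rather than marginal cells. In RNA from whole tissue, fewer cells of a type and less RNA per cell cannot be told apart.

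No probe of these genes differed between genotypes after adjustment. With limma on log2 values, adjusted over all probes by Benjamini-Hochberg, 0 of 13 passed an adjusted p of 0.05, as did 0% of all probes. The smallest adjusted p of a member was 0.525, and that of any probe was 0.25. At an unadjusted p under 0.05, 3 of 13 passed in limma, against 8.56% of all probes. These were the probes of *Bsnd* and *Atp1b2* and 1 probe of *Kcne1*, all higher in *Cmah*-null mice, as were 4.77% of all probes at that threshold. An ordinary test per probe also passed 3, namely *Bsnd*, the same *Kcne1* probe and a *Slc12a2* probe detected on no array, but not *Atp1b2*. At 1.5-fold with an unadjusted p under 0.05, only *Atp1b2* passed, against 2.71% of all probes.

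The groups did not overlap for 4 of 13 probes, against 16.4% of all probes. All 4 were higher in *Cmah*-null mice, against 9.11% of all probes, and 1 of them, a probe of *Slc12a2*, was detected on no array. The median log2 difference of the 7 genes, each by its brightest probe, was 0.32, beside 0.01 over all genes counted this way. It depended on single arrays, at 0.05 without WT 1 and 0.19 without *Cmah*-null 3, and it was 0.03 when each probe was counted.

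**Figure D1:**
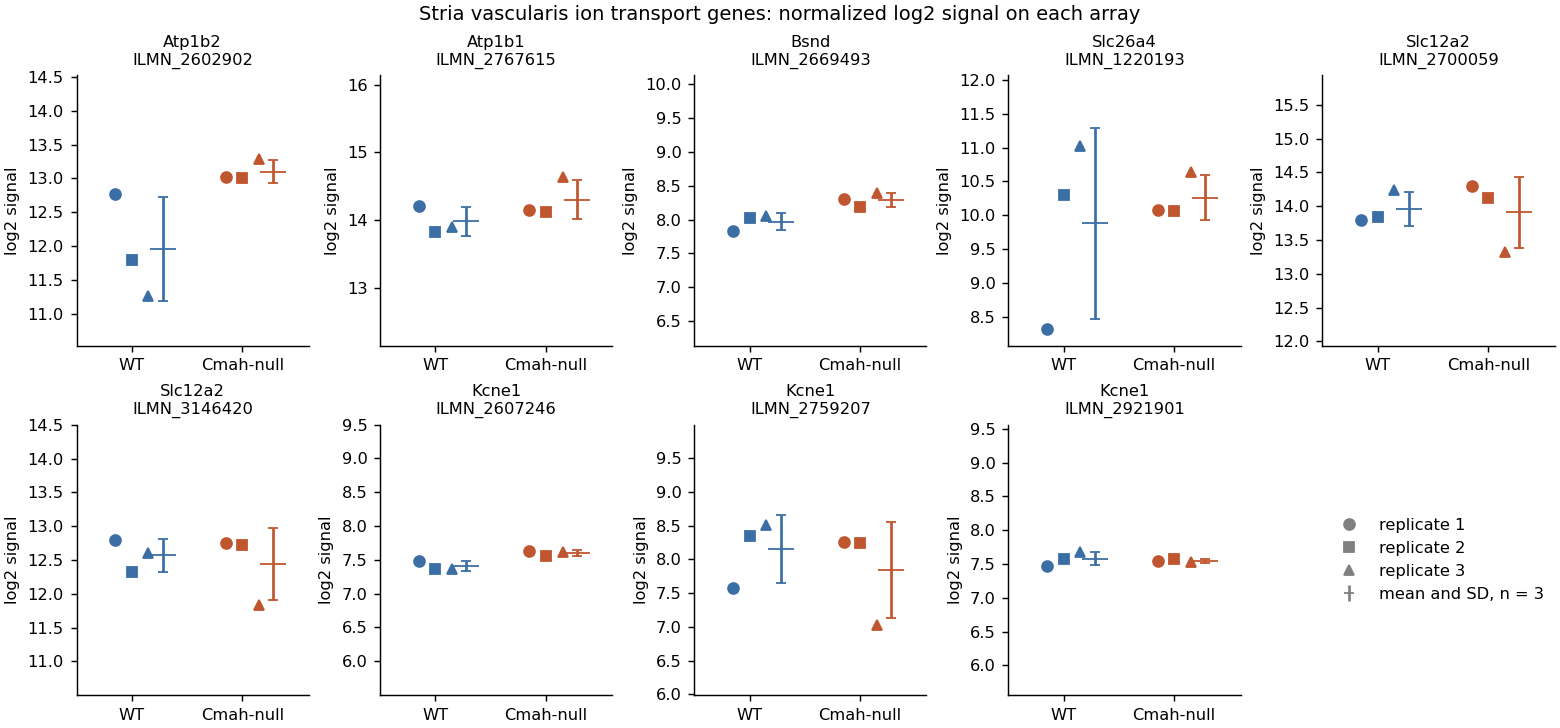
Normalized log2 signal (y axis, 4 log2 units high in each panel) of the 9 probes with a difference, for WT (blue) and *Cmah*-null (orange) mice. Each symbol is 1 array, numbered by replicate, and bars give the mean and SD of 3 arrays. The groups are separate for *Atp1b2*, *Bsnd* and *Kcne1* ILMN_2607246, and WT 1 lies far below the other arrays for *Slc26a4*.

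*Atp1b2*, which encodes the beta-2 subunit of the Na,K-ATPase, had the largest log2 difference of the 9 probes detected in both genotypes. The beta subunit brings the catalytic alpha subunit to the plasma membrane, and beta-2 is also an adhesion molecule of glia. In WT mice the log2 signal was 12.77, 11.80 and 11.26, and in *Cmah*-null mice it was 13.02, 13.00 and 13.29. WT 1 lay 0.22 below the nearest *Cmah*-null array, while WT 2 and WT 3 were lower still. WT mice had a mean of 11.95 ± 0.77 (SD, n = 3), and *Cmah*-null mice of 13.10 ± 0.17 (SD, n = 3). The log2 difference was 1.16 with a SE of 0.38 and a 95% interval of 0.22 to 2.10, a 2.23-fold higher signal. Its adjusted p in limma was 0.54, and its unadjusted p was 0.024. A permutation of the 3 and 3 arrays cannot give an exact two-sided p under 0.1.

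The size of the *Atp1b2* difference depended on the arrays compared. It was 0.23 between WT 1 and *Cmah*-null 1 and 2, which had fewer beads, and 1.76 between WT 2 and 3 and *Cmah*-null 3. Without WT 1 it was 1.57, with an unadjusted p of 7e-04 and an adjusted p of 0.207 in limma, while leaving out any other array gave 0.82 to 1.21, with an unadjusted p of 0.05 to 0.072.

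The pattern of *Atp1b2* over the 6 arrays was most like those of *Fmn2*, *Rtn1* and *Tspan7*, by the root mean square difference of centred log2 values, at 0.18, 0.20 and 0.21. *Rtn1*, a reticulon of neurons and endocrine cells, had log2 signals of 13.36, 12.44 and 12.33 in WT and 13.52, 13.45 and 14.04 in *Cmah*-null mice. WT 2 and WT 3 were the lowest arrays in these genes too, which follows from choosing them by their likeness to *Atp1b2*. The summed signal of 14 neuron markers, a list chosen after seeing these neighbours, was 118000, 86400 and 85300 in WT and 109000, 107000 and 145000 in *Cmah*-null mice. This sum was lowest on the same 2 arrays. They were the lowest for 5 of the 14 markers taken singly, beside 11.6% of the probes detected on the 6 arrays. Of the 14 markers, 13 were detected on the 6 arrays, 1 on some and none was undetected throughout. The neuron list chosen first, with 5 of 7 genes matched and 3 detected on the 6 arrays, summed to 3800 to 8120 in WT and 3560 to 6010 in *Cmah*-null mice, and its markers *Nefl* and *Snap25* were detected on no array. The 7 myelin markers, all detected, summed to 98000 on WT 1 and to 38900 to 48100 on the other arrays. The 5 astrocyte markers, 4 of them detected on the 6 arrays, summed to 37200 to 40800 in WT and 20700 to 47100 in *Cmah*-null mice. The part of these cells in the *Atp1b2* difference was not tested.

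**Figure D2:**
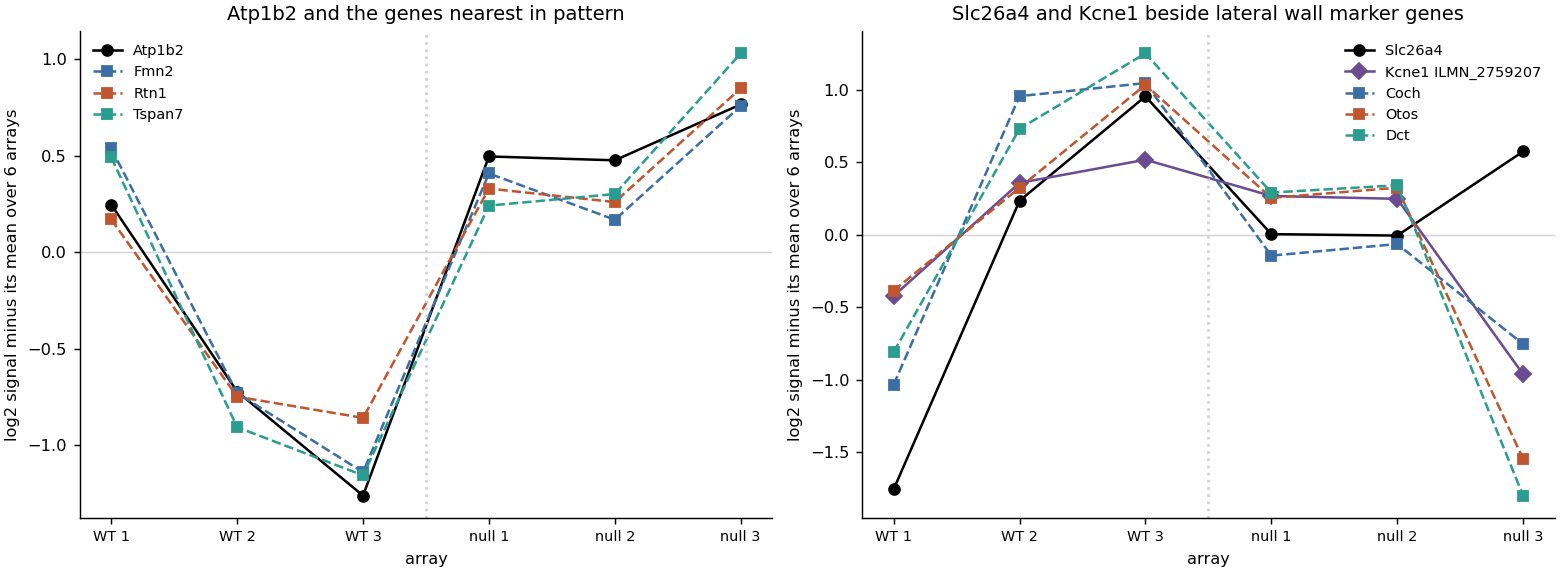
Log2 signal minus its mean over the 6 arrays (y axis) on each array (x axis). On the left, *Atp1b2* and the 3 genes nearest in pattern are lowest on WT 2 and WT 3. On the right, *Slc26a4* is lowest on WT 1, at 8.31, and *Kcne1* ILMN_2759207 is lowest on *Cmah*-null 3 and WT 1, as are *Coch*, *Otos* and *Dct*. *Coch*, *Otos* and *Dct* were singled out after their values were seen, and most markers of their lists had another pair of lowest arrays.

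*Atp1b1*, the beta-1 subunit, was bright on every array. Its log2 signal was 14.21, 13.83 and 13.89 in WT and 14.15, 14.12 and 14.63 in *Cmah*-null mice. The groups overlapped, with WT 1 above 2 of the *Cmah*-null arrays. Its log2 difference was 0.32 (SE 0.18, 95% interval -0.12 to 0.77), with an adjusted p of 0.676 in limma. It was -0.08 among the arrays with fewer beads and 0.78 among the others.

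Among 12 measured Na,K-ATPase subunits and FXYD regulators, 1 passed an unadjusted p of 0.05, which is 8.33% beside 9.07% of all genes by their brightest probe. It was *Fxyd3*, a regulator of the pump in epithelia, at 11.58, 11.80 and 11.93 in WT and 12.21, 12.08 and 12.53 in *Cmah*-null mice, a log2 difference of 0.50 (SE 0.15, adjusted p = 0.51 in limma).

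*Slc12a2* encodes NKCC1, which carries sodium, potassium and chloride into the marginal cell. Of its 4 probes, 2 were bright and 2 were detected on no array and are given no difference. ILMN_2700059 had log2 signals of 13.79, 13.84 and 14.24 in WT and 14.30, 14.12 and 13.32 in *Cmah*-null mice. ILMN_3146420 had log2 signals of 12.79, 12.32 and 12.61 in WT and 12.76, 12.72 and 11.83 in *Cmah*-null mice. Both were lowest on *Cmah*-null 3, and the groups overlapped. The log2 differences were -0.05 (SE 0.28, 95% interval -0.74 to 0.65) and -0.13 (SE 0.28, 95% interval -0.83 to 0.56), with adjusted p of 0.974 and 0.915 in limma. Without *Cmah*-null 3 they were 0.25 and 0.17, and without WT 3 the first was 0.09, so neither a rise nor a fall was resolved. Under median scaling they were 0.42 and 0.37, a scaling that also moved the median difference over detected probes from 0.03 to 0.30.

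Of 13 measured cation-chloride cotransporters and their kinases, 1 was higher at an unadjusted p under 0.05 and 5 had groups that did not overlap, all higher in *Cmah*-null mice. Of all genes, 5.58% were higher at that threshold and 10% were higher without overlap. *Slc12a4*, the potassium-chloride cotransporter KCC1, had log2 signals of 7.43, 7.58 and 7.55 in WT and 7.78, 7.79 and 7.92 in *Cmah*-null mice, and was detected on 2 WT and 3 *Cmah*-null arrays. Its log2 difference was 0.31 (SE 0.08, adjusted p = 0.453 in limma). Of the kinases that act on NKCC1, *Wnk1* and *Stk39* overlapped between groups and did not pass an unadjusted p of 0.05. *Wnk2*, named after its values were seen, had groups 0.03 apart and an unadjusted p of 0.2 in limma. *Wnk1* had a log2 difference of 0.18 (SE 0.24) and *Stk39*, which encodes SPAK, of 0.24 (SE 0.15).

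*Bsnd*, which encodes barttin, was dim but detected on every array, and was higher in *Cmah*-null mice by a small amount. The log2 signal was 7.83, 8.02 and 8.06 in WT and 8.30, 8.18 and 8.40 in *Cmah*-null mice. The groups were separated by 0.12, about the SD within each group. The means were 7.97 ± 0.12 (SD, n = 3) and 8.29 ± 0.11 (SD, n = 3). The log2 difference was 0.33 (SE 0.10, 95% interval 0.08 to 0.57), a 1.25-fold higher signal, with an unadjusted p of 0.019 and an adjusted p of 0.525 in limma. Within the 2 sets of arrays it was 0.41 with fewer beads and 0.37 with more. Leaving out each array gave 0.26 to 0.38, and the unadjusted p was 0.051 without WT 1 and 0.054 without *Cmah*-null 1.

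*Slc26a4*, which encodes pendrin, varied more between arrays than any other member, over 2.72 log2 units. Its log2 signal was 8.31, 10.30 and 11.02 in WT and 10.07, 10.06 and 10.64 in *Cmah*-null mice. The *Cmah*-null arrays lay inside the WT range, and WT 1 stood far below all others. The means were 9.88 ± 1.41 (SD, n = 3) and 10.26 ± 0.33 (SD, n = 3). The log2 difference came to 0.38 (SE 0.69, 95% interval -1.33 to 2.09), with an adjusted p of 0.899 in limma, and its direction rested on WT 1, since it was -0.40 without that array. Among the arrays with fewer beads, which hold WT 1, it was 1.76, and among the others -0.02.

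WT 1 was the lowest array for 4 of 7 markers of cochlear fibrocytes and matrix and for 4 of 5 of epidermis, beside 23.3% of the probes detected on the 6 arrays. The 7 markers of cochlear fibrocytes and matrix summed to 25500 on WT 1, and to 33400 and 36200 on WT 2 and 3, beside 32000 to 35900 on the *Cmah*-null arrays. Of these 7 markers, 5 were detected on the 6 arrays, and *Otor*, which is among the 4 with WT 1 lowest, was detected on none. *Coch*, which encodes cochlin, was at 10.40 on WT 1 and at 12.39 and 12.48 on WT 2 and 3, beside 11.29, 11.37 and 10.68 in *Cmah*-null mice, so that *Cmah*-null 3 was nearly as low as WT 1. It is a gene singled out after its values were seen. The 5 matched epidermis markers, all detected, summed to 31200, 45400 and 124000 in WT and 106000 to 110000 in *Cmah*-null mice. The genes nearest to *Slc26a4* in pattern were *Rbm35a*, a splicing regulator of epithelia, *Sfrp4*, a secreted Wnt antagonist, and *Grb7*, a signalling adaptor, at a root mean square of 0.32, 0.33 and 0.35. The part of tissue make-up in the low *Slc26a4* signal of WT 1 was not tested.

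Among 16 measured SLC26 exchangers and genes of bicarbonate or proton transport, 1 was higher and 1 lower at an unadjusted p under 0.05, beside 5.58% and 3.49% of all genes. *Slc4a2*, the anion exchanger AE2, had log2 signals of 11.52, 11.39 and 11.33 in WT and 11.88, 11.91 and 12.21 in *Cmah*-null mice. Its log2 difference was 0.58 (SE 0.12, adjusted p = 0.397 in limma), and it was 0.37 and 0.85 within the arrays with fewer and more beads. *Car2*, carbonic anhydrase II, was lower by a log2 difference of -0.87 (SE 0.35, adjusted p = 0.58 in limma), but its groups overlapped. Of these 16 genes, 8 were detected on no array.

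*Kcnq1* encodes the pore of the apical potassium channel. Its single probe is the only member probe for which the annotation lists no Entrez gene ID, RefSeq transcript or chromosome band. It had log2 signals of 7.45, 7.28 and 7.50 in WT and 7.45, 7.36 and 7.53 in *Cmah*-null mice. Only 2 WT arrays and no *Cmah*-null array detected it, all near background, so no difference is given. A change of *Kcnq1* was not detectable at this signal, and the target of this probe was not checked.

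*Kcne1* encodes the small subunit that slows and enlarges the current of that channel. Of its 4 probes, 3 were given a difference, in both directions but with overlapping 95% intervals. ILMN_2607246 had log2 signals of 7.49, 7.36 and 7.36 in WT and 7.63, 7.56 and 7.61 in *Cmah*-null mice. Only 1 WT array detected it, against 3 *Cmah*-null arrays, and its groups were 0.07 apart. The log2 difference was 0.19 (SE 0.07, 95% interval 0.01 to 0.38), with an unadjusted p of 0.042 and an adjusted p of 0.574 in limma, and every array left out, except WT 1, took the unadjusted p above 0.05. ILMN_2921901 had log2 signals of 7.47, 7.58 and 7.68 in WT and 7.54, 7.58 and 7.53 in *Cmah*-null mice, and a difference of -0.03 (SE 0.08), which was 0.02 without WT 3. The probe ILMN_2757772 was detected on no array.

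The brightest *Kcne1* probe, ILMN_2759207, showed the largest spread of the 4. Its log2 signal was 7.57, 8.35 and 8.51 in WT and 8.26, 8.24 and 7.03 in *Cmah*-null mice. *Cmah*-null 3 was not above background, with a detection p of 0.87, while the other 5 arrays were. Its log2 difference was -0.30 (SE 0.42, 95% interval -1.34 to 0.73), with an adjusted p of 0.863 in limma, and it was 0.10 without *Cmah*-null 3. It was 0.68 among the arrays with fewer beads and -1.41 among the others.

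*Cmah*-null 3 and WT 1, the lowest arrays for this *Kcne1* probe, were also the lowest for *Kcnj16*, the inward rectifier that can pair with the product of *Kcnj10*. Its log2 signal was 8.07, 8.47 and 8.87 in WT and 8.92, 8.57 and 8.15 in *Cmah*-null mice, a difference of 0.08 (SE 0.27). The same 2 arrays were lowest for *Dct*, a pigment enzyme of the intermediate cells of the stria, at 8.56, 10.10 and 10.62 in WT and 9.66, 9.71 and 7.57 in *Cmah*-null mice. They were lowest for *Otos*, which encodes otospiralin of the fibrocytes, at 9.98, 10.69 and 11.40 in WT and 10.62, 10.69 and 8.82 in *Cmah*-null mice. *Dct* and *Otos* were singled out after their values were seen. This pair of lowest arrays was found for 2 of 8 melanocyte markers and 3 of 7 markers of cochlear fibrocytes and matrix. It was found in 11.2% of the probes detected on the 6 arrays. Other markers of these lists differed, named here after their values were seen. The melanocyte marker *Ednrb* was lowest on *Cmah*-null 3 and WT 3. Of the fibrocyte and matrix markers, *Cldn11* was lowest on WT 2 and WT 3, and *Gjb2* was highest on *Cmah*-null 3. The 8 matched melanocyte markers, 3 of them detected on the 6 arrays, summed to 6990 to 7720 in WT and to 8420, 8080 and 3010 in *Cmah*-null mice, while *Met* and *Tyr* were detected on no array. The part of lateral wall content in the *Kcne1* values was not tested.

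**Figure D3:**
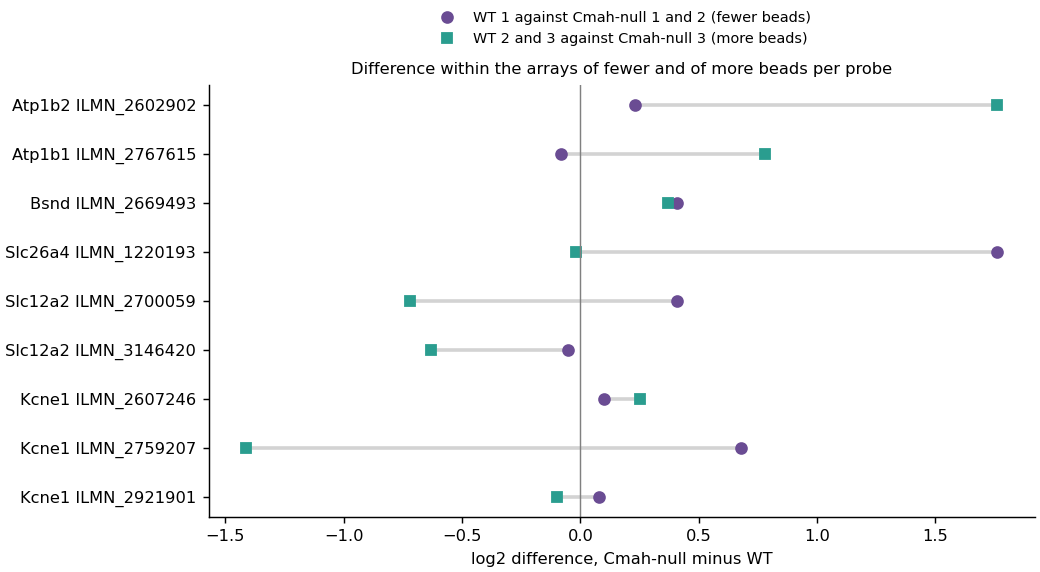
Log2 difference, *Cmah*-null minus WT (x axis), of the 9 probes within the arrays with fewer beads (circles) and with more beads (squares). The 2 values of *Bsnd* are alike, at 0.41 and 0.37, those of *Atp1b2* are 0.23 and 1.76, and those of *Kcne1* ILMN_2759207 lie on opposite sides of 0.

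Among 10 measured relatives of these channels, 1 passed an unadjusted p of 0.05, beside 9.07% of all genes. *Kcne2*, a further KCNE subunit, had log2 signals of 7.85, 8.23 and 7.65 in WT and 9.46, 9.52 and 8.43 in *Cmah*-null mice, and a difference of 1.23 (SE 0.33, adjusted p = 0.463 in limma). *Kcne2* is also a marker of the choroid plexus, an epithelium of the brain. The 6 matched markers of that tissue, *Kcne2* included, had 4 that were higher at an unadjusted p under 0.05, beside 5.58% of all genes, and they summed to 15600 to 57800 in WT and 54400 to 66000 in *Cmah*-null mice. Of these 6, 5 were detected on the 6 arrays and none was undetected throughout, and the part of this tissue in the *Kcne2* difference was not tested.

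The widest gap between groups among the related genes was that of *Scnn1a*, the alpha subunit of the epithelial sodium channel. It had log2 signals of 8.41, 8.18 and 8.47 in WT and 9.50, 9.39 and 9.88 in *Cmah*-null mice. The lowest *Cmah*-null array lay 0.92 above the highest WT array. The log2 difference was 1.24 (SE 0.16, 95% interval 0.85 to 1.62), a 2.36-fold higher signal, with an unadjusted p of 0.00025 and an adjusted p of 0.365 in limma. It was 1.04 and 1.55 within the arrays with fewer and more beads. *Scnn1b*, the beta subunit, was at 8.12, 8.44 and 8.91 in WT and 9.05, 9.05 and 8.96 in *Cmah*-null mice, a difference of 0.53 (SE 0.20, adjusted p = 0.574 in limma). *Scnn1b* was separated by 0.05 only. *Scnn1g*, the gamma subunit, overlapped between groups, at 7.58, 7.69 and 8.14 in WT and 7.91, 7.93 and 8.73 in *Cmah*-null mice, a difference of 0.39 (SE 0.27, adjusted p = 0.725 in limma), and was named after its values were seen. *Sgk1*, a kinase that raises the activity of this channel, had log2 signals of 13.02, 12.93 and 12.86 in WT and 13.49, 13.42 and 13.07 in *Cmah*-null mice, a difference of 0.39 (SE 0.13, adjusted p = 0.54 in limma). In the mature cochlea this channel absorbs sodium, and it is abundant in other epithelia too.

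Of 9 genes listed as regulators and apical proteins of marginal cells, *Scnn1a*, *Scnn1b* and *Sgk1* passed an unadjusted p of 0.05, beside 9.07% of all genes. The list is not restricted to marginal cells, since *Pou3f4* on it is also among the markers of cochlear fibrocytes and matrix. *Esrrb*, a nuclear receptor of the marginal cells, was at 9.88 to 9.99 on 5 arrays and at 11.08 on *Cmah*-null 3, a difference of 0.39 (SE 0.32). *Lrp2*, the apical receptor megalin, was detected on 2 arrays and *Foxi1*, a transcription factor upstream of pendrin, on 1. Over all 68 related genes measured, of 74 listed, 8 were higher and 1 was lower at an unadjusted p under 0.05, which is 13.2% beside 9.07% of all genes by their brightest probe (5.58% higher and 3.49% lower). None passed an adjusted p of 0.05 in limma. The groups did not overlap for 17 higher and 3 lower genes, 29.4% beside 16.7% of all genes (10% higher and 6.67% lower). For these 68 genes the median log2 difference was 0.12 beside 0.01.

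**Figure D4:**
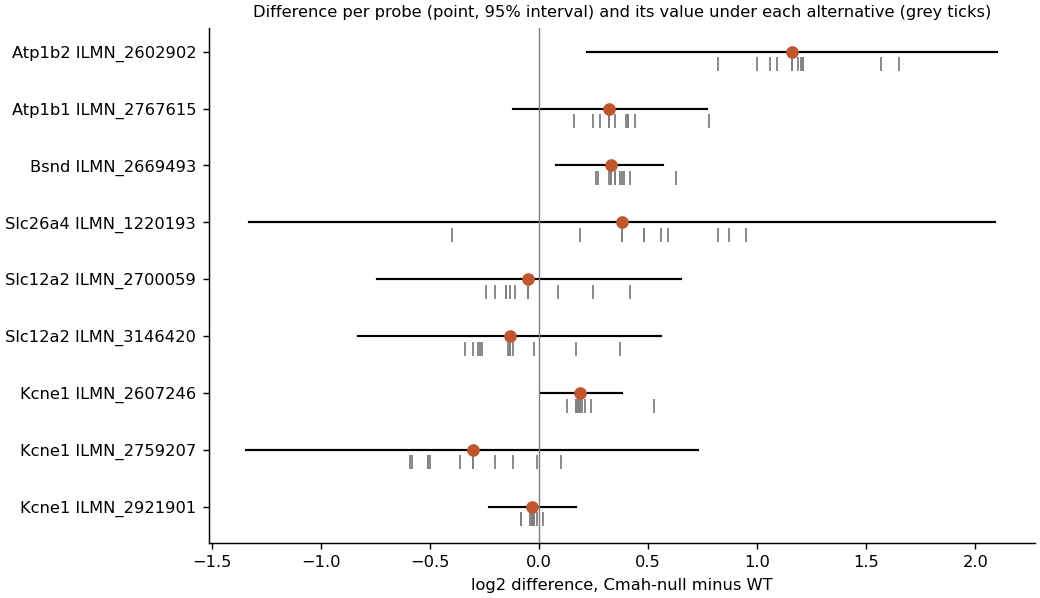
Log2 difference, *Cmah*-null minus WT (x axis), of the 9 probes detected in both genotypes, with its 95% interval in limma (black line) and its value under each alternative (grey ticks). The intervals of *Atp1b2*, *Bsnd* and *Kcne1* ILMN_2607246 lie above 0, and the ticks of *Slc26a4*, both *Slc12a2* probes and the other *Kcne1* probes fall on both sides of 0.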

How the data were processed

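Cochlear RNA of 3 WT and 3 *Cmah*-null mice was measured on 1 array each. Intensity in the deposited raw table is the mean bead signal of a probe, with neither normalization nor background subtraction. The authors also deposited a detection p-value of each probe, exported by the scanner's software. The authors' normalized table holds log2 values, which equalled quantile-normalized raw log2 signals to within 5e-07. Its columns say "old" for the group that the sample records call *Cmah*-null, and they were matched by name and number. Its fold changes, means, SDs, LPE statistic and adjusted p were not used, nor were 12 columns that repeat per-sample values.

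Log2 values were compared with limma (version 3.58.1, under R version 4.3.3), using lmFit and eBayes with genotype as the sole term and two-sided tests, adjusted by Benjamini-Hochberg over 25697 probes, and the script was tested on simulated data. Probes were called detected at a detection p under 0.05, and no difference is given where a whole genotype was undetected. A gene with several probes was counted by its brightest. The number of arrays limits the precision. Members, lists and tests were chosen with earlier results of these data known. Named were all members, related genes whose groups did not overlap at an unadjusted p under 0.05, fixed defining genes (some of which are not reported here), and the 3 nearest patterns of members detected on 6 arrays that ranged over more than 1 log2 unit. *Car2* was named after its values were seen. Alternatives were median scaling, neqc (offset 16), keeping probes with detection on 3 or more arrays, a replicate block, a trended robust prior, an ordinary test per probe, other probes per gene and each array left out. The bead-number block, the averaging of *Cmah*-null 1 and 2 and the second neuron list were chosen after seeing the data. Python 3.11.15 with matplotlib 3.10.9 drew the figures.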

Additional observations from a re-analysis of the deposited data

How the results depend on the processing

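No member or related gene passed an adjusted p of 0.05 under any alternative run. Over the 14 alternatives, the log2 differences of *Atp1b2* and *Bsnd* were 0.82 to 1.65 and 0.26 to 0.63. Most of these alternatives could not reverse them. Leaving out or averaging arrays cannot reverse a difference between groups that do not overlap. The detection filter, the replicate block and the other tests leave the difference itself unchanged. *Atp1b1* and *Kcne1* ILMN_2607246 also kept their direction. Member probes at 1.5-fold with an unadjusted p under 0.05, 1 in the report, were 2 under median scaling and under neqc, and 0 in the ordinary test and with *Cmah*-null 1 and 2 averaged. Member probes at an unadjusted p under 0.05 were 1 instead of 3 among probes detected on at least 3 arrays, and 1 with those arrays averaged. Related genes at an unadjusted p under 0.05 were 23 under median scaling and 17 with the bead-number block, instead of 9. The median of the member genes was 0.03 with each probe counted. Median scaling reversed both *Slc12a2* probes, to 0.42 and 0.37.

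With each array left out, member probes at an unadjusted p under 0.05 numbered 0 (without *Cmah*-null 1) to 3 (without WT 1), and 1 without any other array. At 1.5-fold they numbered 0 to 1, with 1 only without WT 1. Member probes with separate groups numbered 4 to 8, with 8 without WT 1. Related genes at an unadjusted p under 0.05 numbered 5 (without WT 2) to 11, and those with separate groups 21 to 33, with 33 without WT 1 or without *Cmah*-null 3. The member median was 0.05 (without WT 1) to 0.38, and 0.19 without *Cmah*-null 3. The differences of *Slc26a4* ranged from -0.40 to 0.95, of *Slc12a2* from -0.24 to 0.25 and from -0.30 to 0.17, and of *Kcne1* ILMN_2759207 from -0.59 to 0.10 and ILMN_2921901 from -0.08 to 0.02. The cause of these changes was not tested, and leaving out an array also makes its group smaller.

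Deviations of same-numbered arrays from their group means correlated at 0.02, -0.17 and 0.01. These values cannot decide whether replicate numbers pair the samples, because *Cmah*-null 1 and 2 correlated at 0.996. The deviations of those arrays from their group mean are therefore nearly alike. With the replicate block, 2 member probes had an unadjusted p under 0.05, and *Atp1b2* and *Bsnd* had adjusted p of 0.589 and 0.571 in limma. Signal near background limits *Kcnq1* and *Kcne1*.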
